A study of Mus musculus with 15 samples.

Results

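Lipid-associated macrophages of fat are recognised by a small set of genes, and 10 of them were followed here: Trem2, Gpnmb, Atp6v0d2, Spp1, Cd9, Cd63, Lgals3, Lipa, Itgax and Cd68. They were taken by symbol from a count table of 24015 genes, and all 10 were among the 15288 genes that passed the filter on low counts. The set was selected on the counts of these libraries, with the group levels and the comparisons made here already known. The levels, fitted changes and adjusted p-values given for the 10 genes are therefore a description and no independent evidence that they differ between groups. RNA was from inguinal adipose tissue of C57BL/6 mice, 2 months old (young) or 12 months old (aged), all kept for 2 weeks at thermoneutrality and then given vehicle or CL intraperitoneally for 5 days. Vehicle-treated young and aged mice form Young_Ctrl (n = 4) and Old_Ctrl (n = 3, replicates 1, 3 and 4), and CL-treated mice form Young_CL (n = 4) and Old_CL (n = 4). CL stands for cardiolipin in the labels. In work on fat the abbreviation commonly means a β3-adrenergic agonist, so the compound is called CL throughout. The labels do not state that the libraries came from separate animals, and p-values then reflect the spread between these libraries alone, which may be technical. Total counts were 7066687 to 14796440 in Young_Ctrl, 6115542 to 30621448 in Young_CL, 6495373 to 51577001 in Old_Ctrl and 15723586 to 40235461 in Old_CL.

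Macrophages of adipose tissue clear dying fat cells and the lipid that these release. In obese or stressed fat, macrophages that surround dead adipocytes take up lipid, enlarge their lysosomes and turn on a shared programme that depends on the receptor TREM2. TREM2 binds lipids and lipoproteins at the cell surface and signals through the adaptor TYROBP. The other 9 genes serve adhesion (Itgax, the integrin chain CD11c), secreted or extracellular signals (Spp1, osteopontin, and Lgals3, galectin-3), membrane organisation (the tetraspanins Cd9 and Cd63), and the lysosome. Lysosomal roles belong to Lipa, the acid lipase that frees cholesterol and fatty acids, to Atp6v0d2, a proton pump subunit of macrophages and osteoclasts, to Cd68, a heavily glycosylated membrane protein, and to the glycoprotein gene Gpnmb. None of the 10 is strictly confined to these cells, since for example Gpnmb is also a melanocyte gene and Cd63 is found on lysosomes and exosomes of most cells.

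Promoter sequence was examined because in each of the 10 genes the aged vehicle mean was the highest and the aged CL mean the second. RefSeq windows of 300 bases (GRCm38.p6, 250 bases before to 50 bases after an annotated start) were matched by symbol for 9 of the 10 genes in 10 windows, with both starts of Spp1 included and none for Atp6v0d2. The letters TGANTCA, the AP-1 motif, stood in 4 of the 10 windows and in 7.81% of the 32851 windows of all genes. Those windows belong to Trem2, Gpnmb, Itgax and Cd68, and the stretch from 160 bases before to 30 bases after each start is printed with the AP-1 letters in capitals. The stretches are chr17:48346241-48346430 on the plus strand for Trem2, chr6:49036358-49036547 on the plus strand for Gpnmb, chr7:128129390-128129579 on the plus strand for Itgax and chr11:69666141-69666330 on the minus strand for Cd68.
Trem2: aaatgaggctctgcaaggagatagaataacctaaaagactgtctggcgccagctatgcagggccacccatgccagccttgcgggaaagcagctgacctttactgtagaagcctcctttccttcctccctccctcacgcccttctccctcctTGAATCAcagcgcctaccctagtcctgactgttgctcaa
Gpnmb: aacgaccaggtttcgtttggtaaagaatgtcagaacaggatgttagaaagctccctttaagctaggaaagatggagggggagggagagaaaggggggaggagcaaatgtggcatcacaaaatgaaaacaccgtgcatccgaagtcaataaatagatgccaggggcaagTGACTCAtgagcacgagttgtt
Itgax: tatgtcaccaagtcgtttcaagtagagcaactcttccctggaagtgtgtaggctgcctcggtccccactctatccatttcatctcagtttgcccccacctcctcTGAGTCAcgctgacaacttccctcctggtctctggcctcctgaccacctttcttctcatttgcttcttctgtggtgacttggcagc
Cd68: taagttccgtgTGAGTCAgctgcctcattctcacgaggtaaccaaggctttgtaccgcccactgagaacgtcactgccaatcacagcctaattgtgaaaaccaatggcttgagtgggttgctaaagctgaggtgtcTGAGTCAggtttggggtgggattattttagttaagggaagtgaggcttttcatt
Counted from the start, the first letter of the match lies at position -9 in Trem2 (TGAATCA), at position 9 in Gpnmb (TGACTCA), at position -56 in Itgax (TGAGTCA) and at positions -149 and -24 in Cd68 (TGAGTCA at both). Both strands were searched. The E-box CACGTG, read by MITF, TFEB and related lysosomal regulators, was in 0 of the 10 windows against 7.15% of all windows. The related letters CATGTG were in 1 window, that of Cd9, against 14.2% of all, and GAGGAAGT, a form of the PU.1 motif of myeloid cells, was in 1 window, of Spp1, against 3.2% of all. A match describes letters in these windows, not a bound site.

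Some libraries stood apart before any comparison. Skeletal muscle transcripts were abundant in 5 of the 15, with a mean log2 CPM of the muscle markers of 7.09, 7.23 and 6.60 in Young_CL 1, 2 and 3, 7.61 in Old_Ctrl 3 and 7.33 in Old_CL 3, against 1.17 to 4.26 in the others. CPM expresses counts relative to library totals scaled by the trimmed mean of M values (TMM). Old_Ctrl 3 had the lowest level of its group for 10 of the 10 lipid-associated genes, and Old_CL 3 had the highest level of its group for 9. Young_CL 4, which had few muscle transcripts, was lowest of its group for 7, and its resident macrophage markers had a mean log2 CPM of 4.10 against 6.00 to 6.01 in the other Young_CL libraries. Old_CL 1, 2 and 4 were closer to each other than the libraries of any other pair within a group (robust SD of log2 ratios at most 0.0933, against 0.116 to 0.747 in 18 other pairs), yet they differed beyond counting noise and were kept as 3 samples. B cell and lymph node markers were higher in young vehicle libraries (mean log2 CPM 5.15 to 5.72) than in the aged libraries (3.71 to 4.79). The fat cell markers were abundant in every library, with a mean log2 CPM of 8.91 to 11.03.

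Trem2 was low in young pads and high in aged pads. It stood at 3.81, 5.24, 4.85 and 5.12 CPM in Young_Ctrl 1 to 4 and at 8.32, 7.07, 6.96 and 1.78 CPM in Young_CL 1 to 4. The aged vehicle libraries had 82.4, 9.19 and 148 CPM in replicates 1, 3 and 4, and Old_CL 1 to 4 had 28.2, 27.6, 53.2 and 26.3 CPM. Every aged library lay above every young one, while the aged vehicle and aged CL libraries overlapped because Old_Ctrl 3 was near the young level. Because whole tissue was sequenced, more macrophages of this kind and more of the RNA per macrophage cannot be told apart.

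Itgax, the integrin chain that pairs with the β2 chain to form CD11c/CD18, behaved differently from the rest. Its level was 14.6, 22.1, 25.0 and 25.2 CPM in Young_Ctrl 1 to 4, and 14.0, 10.3, 14.6 and 13.003 CPM in Young_CL 1 to 4. Old_Ctrl 1, 3 and 4 had 32.3, 20.0 and 35.1 CPM, and Old_CL 1 to 4 had 21.8, 23.4, 39.4 and 19.6 CPM. The young CL libraries were the lowest group, just under the lowest young vehicle library, and the other 3 groups overlapped.

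Spp1 encodes osteopontin, a secreted ligand of integrins and CD44. Young libraries had little of it, with 3.94, 5.41, 4.73 and 5.73 CPM in Young_Ctrl 1 to 4 and 3.41, 3.64, 4.47 and 2.34 CPM in Young_CL 1 to 4. In aged vehicle pads it was at 63.8, 7.88 and 123 CPM in replicates 1, 3 and 4, and in Old_CL 1 to 4 at 20.5, 12.4, 17.98 and 17.6 CPM. The spread was thus wide in Old_Ctrl, where the highest library had 15.6 times the lowest, and narrow in Old_CL, at 1.65 times. Lgals3 encodes galectin-3, a lectin that binds damaged lysosomes and lipid debris. Its young levels were 105, 75.3, 57.2 and 66.5 CPM under vehicle and 114, 102, 87.5 and 85.0 CPM under CL, in replicates 1 to 4. Aged levels were 630, 113 and 802 CPM in Old_Ctrl 1, 3 and 4 and 250, 281, 525 and 248 CPM in Old_CL 1 to 4. For Lgals3, too, Old_Ctrl 3 was only just above the young vehicle range, and Old_CL 3 was the highest library of its group.

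Gpnmb, a transmembrane glycoprotein gene induced by lysosomal stress, had steady levels in 3 of the 4 groups. It was at 15.6, 15.9, 12.9 and 14.3 CPM in Young_Ctrl 1 to 4 and at 14.2, 18.1, 13.9 and 12.0 CPM in Young_CL 1 to 4. In Old_CL 1 to 4 it was at 163, 171, 206 and 170 CPM. Old_Ctrl 1, 3 and 4 had 698, 93.8 and 1224 CPM, so the aged vehicle libraries lay both above and below the aged CL range.

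The tetraspanins Cd9 and Cd63, which gather partner proteins into membrane patches, differed by less. Cd63 was at 222, 183, 181 and 164 CPM in Young_Ctrl 1 to 4 and at 165, 177, 160 and 133 CPM in Young_CL 1 to 4. Old_Ctrl 1, 3 and 4 had 383, 269 and 431 CPM and Old_CL 1 to 4 had 196, 205, 247 and 194 CPM. Alone among the 10 genes, Cd63 had every aged CL library below every aged vehicle library. Such a separation, in one direction or the other, was found in 52.9% of all tested genes. Cd9 ranged from 44.6 to 51.97 CPM in Young_Ctrl, at 32.4 to 44.9 in Young_CL, at 63.3 to 105 in Old_Ctrl and at 51.7 to 64.8 in Old_CL.

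Among the lysosomal genes, Atp6v0d2 was very low in young pads. It had 1.18, 0.945, 0.759 and 1.17 CPM in Young_Ctrl 1 to 4 and 1.58, 1.10, 1.33 and 1.86 CPM in Young_CL 1 to 4. Old_Ctrl 1, 3 and 4 had 59.3, 3.46 and 108 CPM, and Old_CL 1 to 4 had 24.8, 25.0, 52.4 and 25.2 CPM. Its highest aged vehicle library had 31.1 times the level of the lowest, the widest ratio among the 10 genes in any group. Cd68 was at 39.97, 51.7, 33.98 and 44.6 CPM in Young_Ctrl 1 to 4 and at 46.7, 40.4, 49.2 and 21.97 CPM in Young_CL 1 to 4. Aged levels of Cd68 were 266, 61.4 and 238 CPM in Old_Ctrl 1, 3 and 4 and 75.1, 85.8, 155 and 79.5 CPM in Old_CL 1 to 4. Lipa ranged from 62.5 to 72.0 CPM in Young_Ctrl, at 76.8 to 94.3 in Young_CL, at 69.6 to 244 in Old_Ctrl and at 123 to 185 in Old_CL. In each of the 10 genes the Old_Ctrl mean was the highest and the Old_CL mean the second, and in all but Cd63 those neighbours overlapped. Next to them, Old_CL overlapped Young_Ctrl for Cd9, Cd63 and Itgax.

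**Figure D1:**
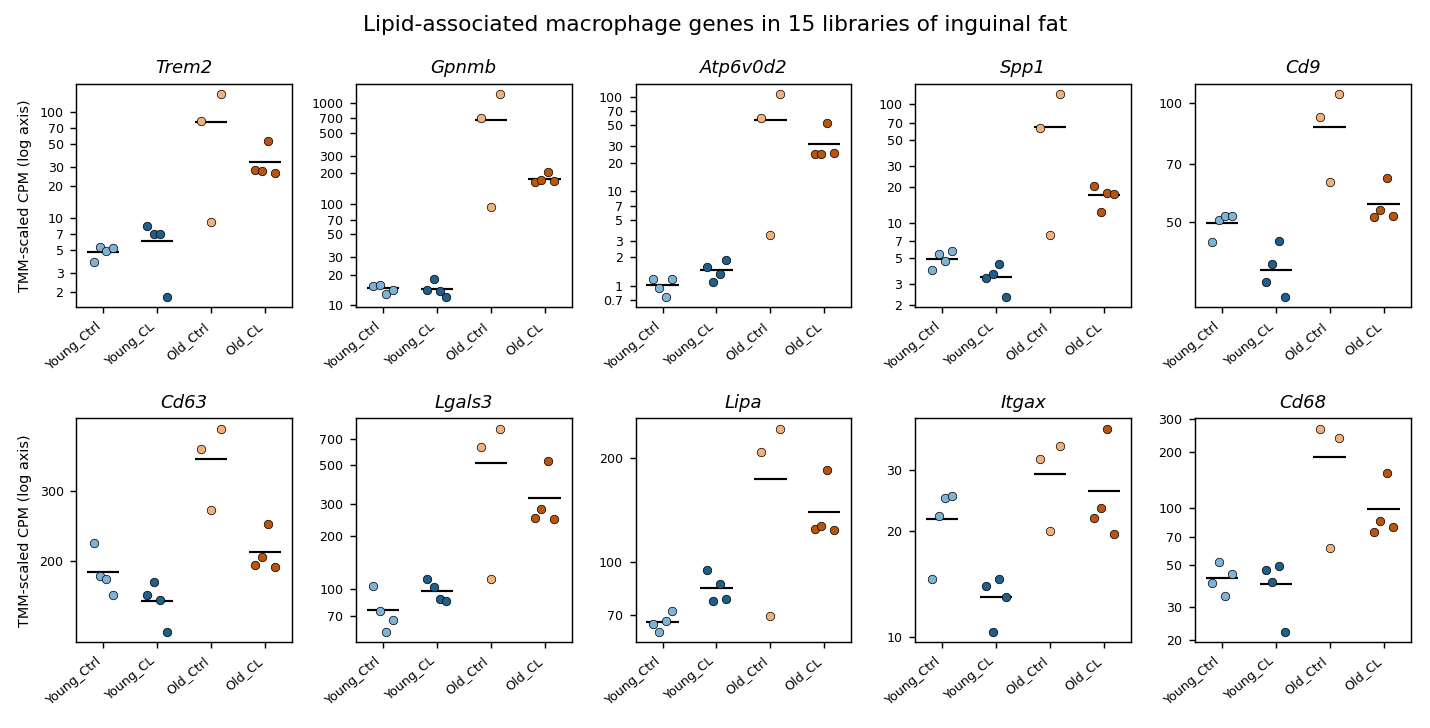
TMM-scaled CPM (log axis) of the 10 genes, 1 dot per library (n = 3 in Old_Ctrl, n = 4 in each other group), in replicate order, and a bar at each mean. In every panel the bar of Old_Ctrl is the highest and that of Old_CL the second. Old_CL dots overlap those of Young_Ctrl for Cd9, Cd63 and Itgax, and Old_Ctrl dots overlap young ones for Lgals3, Lipa and Itgax. Old_Ctrl 3 is the lowest aged vehicle dot in every panel, as for Trem2 at 9.19 CPM against 82.4 and 148.

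Aged against young under vehicle asks how the pads differ with age before any CL. Of the 10 genes 9 were higher and 0 lower at an adjusted p under 0.05 (edgeR quasi-likelihood test, Benjamini-Hochberg over 15288 genes), while 27.2% of all tested genes were called in this comparison and 15.1% were called higher. The median log2 change of the 10 genes was 2.45, and that of all tested genes 0.03. Atp6v0d2 was 56.3-fold higher (log2 change 5.82, SE 0.93, edgeR adjusted p = 0.0017) and Gpnmb 45.9-fold higher (log2 change 5.52, SE 0.59, edgeR adjusted p = 0.00017). Trem2 was 16.5-fold higher (log2 change 4.04, SE 0.74, edgeR adjusted p = 0.0030) and Spp1 12.9-fold higher (log2 change 3.69, SE 0.63, edgeR adjusted p = 0.0020). Smaller log2 changes were fitted for Lgals3 (2.77), Cd68 (2.14), Lipa (1.37), Cd63 (0.94) and Cd9 (0.80), each with an edgeR adjusted p of 0.0045 or less. Itgax did not pass (0.40, SE 0.25, edgeR adjusted p = 0.24). The libraries of the groups did not overlap for 8 of the 10 genes, all higher with age, against 27.1% of all tested genes, and Lipa and Itgax overlapped.

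The size of the age difference under vehicle depended on Old_Ctrl 4. Without Old_Ctrl 4, the log2 changes were 4.75 for Gpnmb, 4.89 for Atp6v0d2, 3.19 for Trem2 and 2.78 for Spp1, and the count remained at 9 of 10. With the B cell marker mean added to the fit, 0 of 10 genes passed, and 0.157% of all genes did. That score did not overlap between these groups (5.15 to 5.72 in Young_Ctrl and 4.03 to 4.79 in Old_Ctrl), so age and the score cannot be told apart here.

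Aged against young under CL asks whether the age difference is still there after treatment. Here 10 of 10 genes were higher, while 40% of all tested genes were called, 20.5% higher and 19.4% lower. The median log2 change was 1.54 for the 10 genes and -0.01 for all tested genes. Atp6v0d2 was 21.9-fold higher (log2 change 4.45, SE 0.84, edgeR adjusted p = 0.0014), Gpnmb 12.1-fold (3.60, SE 0.54, edgeR adjusted p = 0.00026) and Trem2 5.52-fold (2.46, SE 0.67, edgeR adjusted p = 0.012). Spp1 was 5.03-fold higher, Lgals3 3.35-fold, Cd68 2.51-fold and Itgax 2.04-fold. The smallest differences were those of Lipa (1.67-fold, edgeR adjusted p = 0.040), Cd9 (1.47-fold) and Cd63 (1.33-fold, edgeR adjusted p = 0.037). In all 10 genes every Old_CL library was above every Young_CL library, a separation that 44.9% of all tested genes showed in one direction or the other. Lipa did not pass in 17 of 28 alternative fits and Cd63 in 11 of 28, and Cd68 did not pass without Old_CL 3 (log2 change 1.02, edgeR adjusted p = 0.059). With the B cell marker mean added to the fit, 0 of 10 genes passed and 11.4% of all genes did. That mean did not overlap between Young_CL (4.64 to 4.99) and Old_CL (3.71 to 4.03), so age and the mean cannot be told apart here either.

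**Figure D2:**
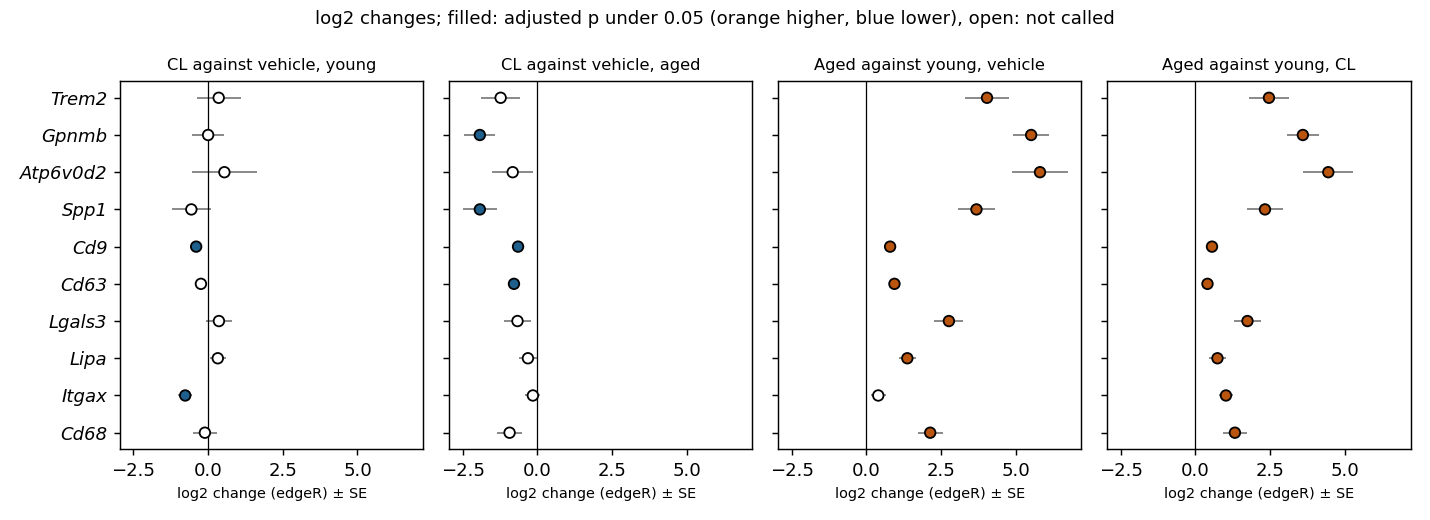
Fitted log2 change with its SE for the 10 genes in 4 comparisons, filled where the edgeR adjusted p is under 0.05 (orange higher, blue lower) and open otherwise. The 2 age panels are filled to the right for 9 and 10 genes, and the CL panels show 2 filled genes in young and 4 in aged pads, all to the left of 0.

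CL against vehicle in aged mice asks what treatment does to these high levels. Of the 10 genes 0 were higher and 4 were lower, against 45.2% of all tested genes called, 23.1% higher and 22.2% lower. Gpnmb fell by 1.92 on the log2 scale (SE 0.51, edgeR adjusted p = 0.0087), from 672 ± 566 CPM in Old_Ctrl to 177 ± 19.5 CPM in Old_CL (SD, n = 3 and 4). Spp1 also fell by 1.92 (SE 0.57, edgeR adjusted p = 0.015), from 64.9 ± 57.6 to 17.1 ± 3.41 CPM. The tetraspanin genes fell by less but with a smaller error, Cd63 by 0.78 (SE 0.16, edgeR adjusted p = 0.0011) and Cd9 by 0.64 (SE 0.15, edgeR adjusted p = 0.0029). The log2 changes of the other 6 genes were -1.22 for Trem2, -0.92 for Cd68, -0.82 for Atp6v0d2, -0.66 for Lgals3, -0.31 for Lipa and -0.14 for Itgax, with edgeR adjusted p-values of 0.084 to 0.66. The median was -0.80, beside -0.01 over all tested genes. Only Cd63 separated the libraries of the groups fully, a separation found in 52.9% of all tested genes.

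Which of the 10 genes passed in aged mice turned on the aged vehicle libraries. Without Old_Ctrl 3, 9 of 10 were lower, against 37.8% of all genes called, and Itgax did not pass. Among the genes that then passed, Trem2 was at -1.76 (edgeR adjusted p = 0.0024), Atp6v0d2 at -1.39 (adjusted p = 0.0018), Cd68 at -1.35 (adjusted p = 0.0031), Lgals3 at -1.14 (adjusted p = 0.0057) and Lipa at -0.69 (adjusted p = 0.0030). Without Old_Ctrl 4, only Cd9 and Cd63 passed, against 40.5% of all genes called, and Gpnmb (-1.15, edgeR adjusted p = 0.071) and Spp1 (-1.01, adjusted p = 0.13) did not. Cd68 also passed without Old_CL 3 (-1.23, edgeR adjusted p = 0.033). With the 5 muscle-rich libraries left out, 10 of 10 were lower, against 32% of all genes called. That fit lacks Old_Ctrl 3, lowest of its group for 10 of the 10 genes, and Old_CL 3, highest of its group for 9. It keeps only Old_Ctrl 1 and 4 beside Old_CL 1, 2 and 4, the libraries closest to each other. With the muscle score as a covariate 4 of 10 were lower, against 46.2% of all genes.

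CL against vehicle in young mice asks the same of pads in which these genes are low. Of the 10 genes 0 were higher and 2 lower, against 43.9% of all tested genes called and 22.1% called lower. Itgax fell by 0.77 on the log2 scale (SE 0.24, edgeR adjusted p = 0.018), from 21.7 ± 4.96 to 12.97 ± 1.88 CPM (SD, n = 4 and 4). Cd9 fell by 0.40 (SE 0.14, edgeR adjusted p = 0.032), from 49.8 ± 3.52 to 37.9 ± 5.40 CPM. The other 8 genes had log2 changes between -0.56 (Spp1, SE 0.65) and 0.54 (Atp6v0d2, SE 1.10), and Gpnmb was level at 14.7 ± 1.38 and 14.6 ± 2.54 CPM. The median over the 10 genes was -0.05, beside -0.07 over all tested genes. Libraries of the groups did not overlap for Lipa, higher with CL, and Itgax, lower, against 34.1% of all tested genes. Both calls were lost without Young_Ctrl 3, Young_Ctrl 4 or Young_CL 2, where 0 of 10 passed against 36.6%, 35.4% and 36% of all genes, and Cd9 alone was lost without Young_Ctrl 2, Young_CL 1 or Young_CL 4.

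The age by CL interaction, the CL change in aged minus that in young mice, tests whether the response differs with age. None of the 10 genes passed in edgeR, DESeq2 or limma-voom, and in edgeR 7.08% of all tested genes were called, 3.31% higher and 3.77% lower. Before adjustment, 2 of 10 (Gpnmb and Cd63) had a p under 0.05 in edgeR. Such values were common, since the gene ranked 4032 of 15288 by p (Tnni2) still had an unadjusted edgeR p of 0.049. The 2 genes are therefore not read as a result. The fitted differences were negative for 9 genes and positive for Itgax, with -1.92 for Gpnmb (SE 0.72, edgeR adjusted p = 0.12), -1.58 for Trem2 (SE 0.97), -1.36 for Spp1 (SE 0.86), -1.36 for Atp6v0d2 (SE 1.29) and 0.62 for Itgax (SE 0.35). The median was -0.92 over the 10 genes and -0.02 over all tested genes. Without Old_Ctrl 3, 7 of 10 passed with a lower value, against 8.51% of all genes called: Gpnmb (-2.44, edgeR adjusted p = 0.00027), Trem2 (-2.12), Atp6v0d2 (-1.94), Spp1 (-1.89), Lgals3 (-1.50), Lipa (-1.02) and Cd63 (-0.71). Without the 5 muscle-rich libraries, 4 of 10 passed with a lower value, against 1.3% of all genes called.

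**Figure D3:**
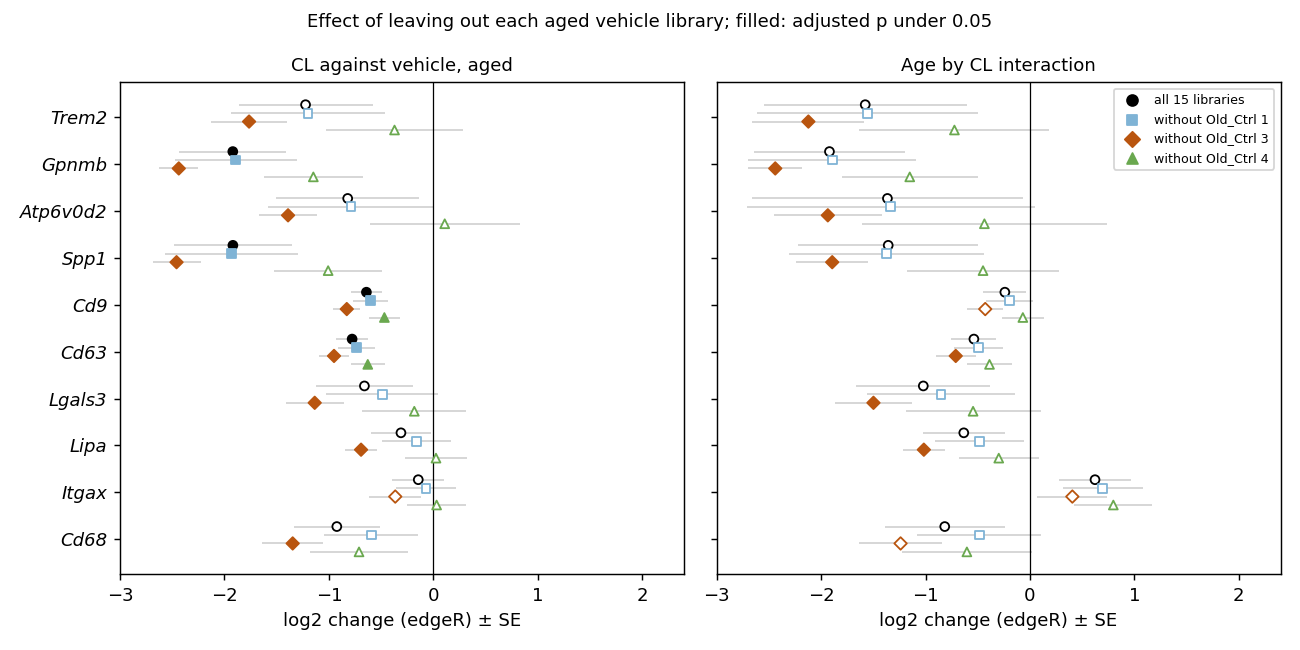
Fitted log2 change with its SE for the 10 genes, for CL against vehicle in aged mice (left) and the age by CL interaction (right), with all 15 libraries and with each Old_Ctrl library left out; filled symbols have an edgeR adjusted p under 0.05. Without Old_Ctrl 3 there are 9 filled genes on the left and 7 on the right, and without Old_Ctrl 4 there are 2 and 0.

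General macrophage markers were also higher with age under vehicle. For this and the later gene lists, the shares of all tested genes called were 27.2% with age under vehicle and 40% under CL. They were 43.9% with CL in young mice, 45.2% with CL in aged mice and 7.08% for the interaction. Of 16 pan-macrophage markers 12 were higher and 0 lower, among them Emr1, the gene of the F4/80 antigen (log2 change 2.08), and the complement genes C1qb (1.53) and C1qc (1.39). Under CL only 3 of 16 were higher with age and 2 were lower, with Emr1 at 1.13 and Csf1r, the receptor of the macrophage growth factor, at 0.37 without passing. CL in aged mice gave 0 higher and 14 lower of 16, for example C1qa (-1.28) and Csf1r (-0.90), and CL in young mice 0 higher and 4 lower. The mean log2 CPM of the 16 markers was 6.54 ± 0.15 in Young_Ctrl, 6.19 ± 0.38 in Young_CL, 7.39 ± 0.58 in Old_Ctrl, while Old_CL had 6.46 ± 0.24 (SD, n = 4, 4, 3 and 4). The same mean over the 10 lipid-associated genes was 4.39 ± 0.08, 4.31 ± 0.23, 6.73 ± 1.36 and 6.16 ± 0.32. After CL the aged pads were thus at the young vehicle level for the 16 markers, whose ranges overlapped (6.29 to 6.82 and 6.41 to 6.71), and above it for the 10 genes, whose ranges did not (5.98 to 6.64 and 4.29 to 4.46).

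Resident macrophage markers also had mostly positive changes with age under vehicle, but few were called. Of 15, 3 were higher and 0 lower, among them the scavenger receptor gene Stab1 (1.27) and the chemokine gene Pf4 (0.97). Mrc1, the mannose receptor gene, did not pass (0.92). The log2 change was positive for 13 of 15, with a median of 0.74, beside 0.99 for the 16 pan-macrophage markers. Libraries of the groups did not overlap, in one direction or the other, for 11 of 15 resident and 6 of 16 pan-macrophage markers, against 27.1% of all tested genes. CL in aged mice gave 0 higher and 12 lower, with Maf at -1.36, Mrc1 at -1.43 and Gas6 at -1.18. Their mean log2 CPM was 5.65 to 6.07 in Young_Ctrl and 6.43 to 6.61 in Old_Ctrl. Old_Ctrl 3, lowest of its group for each of the 10 lipid-associated genes, was thus close to the other aged vehicle libraries in resident markers.

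**Figure D4:**
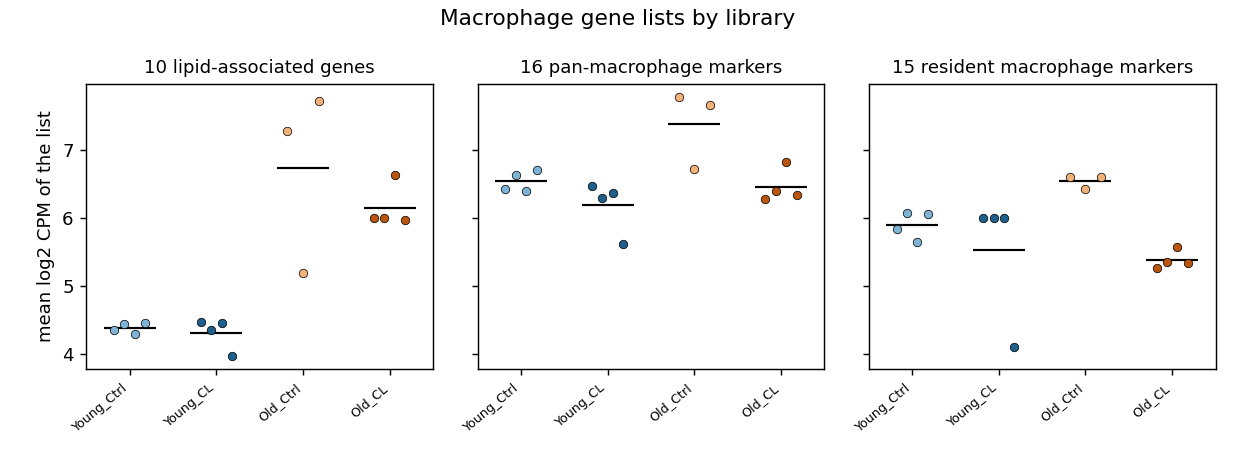
Mean log2 CPM of the 10 lipid-associated genes, 16 pan-macrophage markers and 15 resident macrophage markers with 1 dot per library (n = 3 in Old_Ctrl, n = 4 in each other group) and a bar at each mean. Old_CL is at 5.98 to 6.64 for the 10 genes, above both young groups, while it overlaps the young vehicle group for the pan-macrophage markers and is below it for the resident markers.

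Each gene was also expressed as its log2 CPM minus the mean log2 CPM of the 16 pan-macrophage markers in the same library, a description of level per macrophage transcript. Under vehicle, 5 of 10 genes had every aged library above every young one (Trem2, Gpnmb, Atp6v0d2, Spp1 and Cd68), and under CL 6 of 10 did (the same and Lgals3). Over all tested genes on this scale, 1.03% were separated upwards with age under vehicle and 35.9% downwards, and under CL 4.25% and 23.7%. Gpnmb was at -2.66 ± 0.17 in Young_Ctrl, -2.33 ± 0.31 in Young_CL, 1.36 ± 1.40 in Old_Ctrl, and in Old_CL it was 1.005 ± 0.094 (SD, n = 4, 4, 3 and 4). Atp6v0d2 was at -6.40 ± 0.25, -5.57 ± 0.62, -2.57 ± 2.07 and -1.55 ± 0.30, and Trem2 at -4.27 ± 0.15, -3.78 ± 0.63, -1.80 ± 1.56 and -1.44 ± 0.25 in the same order. On this scale none of the 10 genes separated aged CL from aged vehicle libraries downwards, against 0.608% of all tested genes, and Lipa and Itgax did so upwards, by 0.79 and 0.76, against 40.6%. In young mice Atp6v0d2 and Lipa were separated upwards by CL, by 0.84 and 0.67, against 23.2% of all tested genes, and none of the 10 downwards, against 0.648%. The relative levels of Cd9 and Cd63 overlapped in all 4 comparisons.

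With the pan-macrophage mean as a covariate in the fit, an alternative added after the data were seen, 8 of 10 genes were higher with age under CL, against 39.8% of all genes called, and 1 of 10 under vehicle, against 3.49%. Under vehicle that mean did not overlap between Young_Ctrl (6.41 to 6.71) and Old_Ctrl (6.72 to 7.79). Age and the mean therefore cannot be told apart there. In aged mice the mean overlapped between Old_CL (6.29 to 6.82) and Old_Ctrl (6.72 to 7.79) only through Old_CL 3 (6.82) and Old_Ctrl 3 (6.72). CL and the mean can therefore hardly be told apart in aged mice either. In that fit CL in aged mice gave 2 of 10 higher and 0 lower, Trem2 at 2.11 (edgeR adjusted p = 0.0080) and Cd68 at 0.92 (adjusted p = 0.0029), and CL in young mice gave 4 of 10 higher and 0 lower. Of all genes, 23.5% in aged and 44% in young mice were called in either direction, and both counts are near these shares. The share of all genes called higher in this fit is not given.

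**Figure D5:**
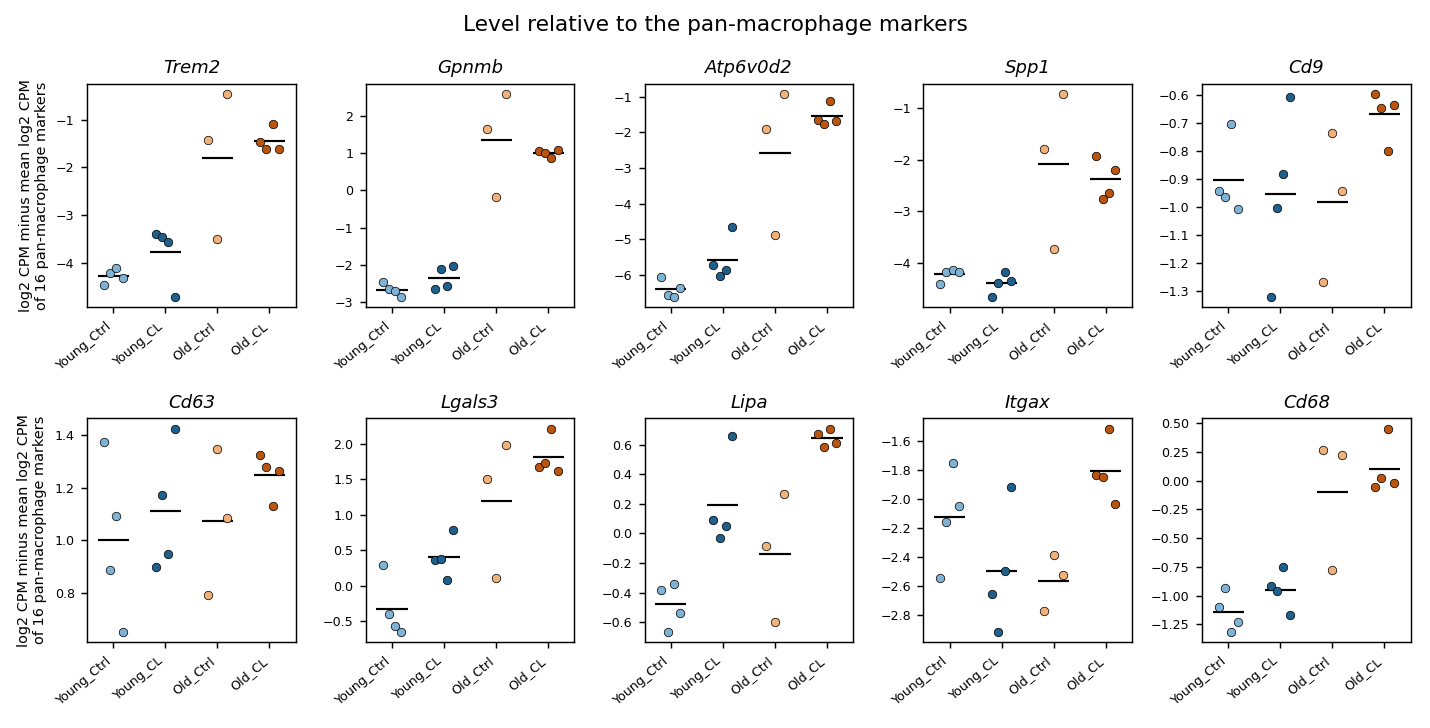
Log2 CPM of each gene minus the mean log2 CPM of 16 pan-macrophage markers in the same library (n = 3 in Old_Ctrl, n = 4 in each other group), with a bar at each mean. Gpnmb lies near -2.66 and -2.33 in the young groups and near 1.36 and 1.005 in the aged groups, while Cd9 and Cd63 overlap across groups.

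The wider lipid-associated programme was read in 30 further genes. Some genes stand in several lists, such as Ctsl here and among the lysosomal genes, and Ctsk here and among the osteoclast markers. The counts of the lists are therefore not independent of each other. With age under vehicle 25 of 30 were higher and 0 lower (median log2 change 1.18, beside 0.03 over all tested genes). The collagen-degrading cathepsin gene Ctsk stood at 1.87 and Apoe, an apolipoprotein gene of lipid export, at 1.05. Under CL 10 of 30 were higher with age and 1 lower, with Ctsl at 1.42, Apoe at 0.88 and the receptor gene Cd300lf, the one that was lower, at -1.50. CL in aged mice gave 6 higher and 12 lower, and CL in young mice 11 higher and 1 lower. Several of those that were higher with CL are also fat cell genes: Lpl, the lipoprotein lipase, was at 1.57 in young and 1.88 in aged mice, and Fabp5, a fatty acid binding protein, at 2.71 and 0.98. The interaction was lower in 7 of 30 and higher in 0, with Plin2, which coats lipid droplets, at -1.95, Fabp5 at -1.73 and Ctsk at -1.53.

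Few signalling partners of Trem2 were higher with age. Among 15 genes of the TREM2 pathway, 2 were higher and 4 lower with age under vehicle, and 0 higher and 8 lower under CL. Tyrobp, the adaptor that TREM2 needs to signal, was higher under vehicle (log2 change 1.26, edgeR adjusted p = 0.0060), with 0.62 under CL (edgeR adjusted p = 0.074), and it fell by 0.95 with CL in aged mice. The kinase gene Btk was lower with age (-0.71 under each treatment), as was the phosphatase gene Ptpn6 (-0.83 under vehicle and -0.86 under CL), both of which are also abundant in B cells. CL gave 0 higher and 11 lower of 15 in young mice and 0 higher and 15 lower in aged mice. B cell and T cell markers moved with these genes. With age under vehicle 0 of 12 tested B cell markers were higher and 11 lower, and with CL in young mice 0 were higher and 11 lower. Of 15 T cell markers 0 were higher and 14 lower with age under vehicle, and 0 higher and 15 lower with CL in young and in aged mice. The summed level of the B cell markers was 1662 to 2284 CPM in Young_Ctrl, 976 to 1384 in Young_CL, 615 to 1197 in Old_Ctrl and 538 to 692 in Old_CL. The part of either list in the result was not tested.

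Receptors for osteopontin changed in both directions. Of 9, 4 were higher and 1 lower with age under vehicle, among them the integrin genes Itgb5 (0.78) and Itga5 (0.93), and under CL 4 were higher and 2 lower. Over all tested genes 27.2% and 40% were called in these comparisons. Cd44, the other osteopontin receptor class, did not pass with age (0.45 under vehicle and -0.17 under CL) and fell by 0.99 with CL in aged mice. Among 7 partners and relatives of the Itgax chain, 2 were higher and 1 lower with age under vehicle and 2 higher and 3 lower under CL. Itgb2, the chain with which CD11c pairs, did not pass with age (0.21 and 0.17) and fell with CL by 0.67 in young and 0.71 in aged mice. Itgad, the neighbouring CD11d chain, was higher with age, at 2.19 under vehicle and 4.63 under CL.

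Many lysosomal companions of Lipa, Cd68 and Atp6v0d2 were higher with age under vehicle, and fewer passed under CL. Of 28 lysosomal hydrolases and membrane proteins 22 were higher and 0 lower under vehicle, and 15 were higher and 1 lower under CL. Examples under vehicle are the cathepsin gene Ctsl (1.71), the galactosidase gene Gla (1.54) and the hexosaminidase gene Hexa (1.10). The median change of the 28 was 0.57 under vehicle, beside 1.37 for Lipa and 2.14 for Cd68. CL gave 8 higher and 2 lower in young mice and 3 higher and 6 lower in aged mice. Of 17 further proton pump subunits 9 were higher and 0 lower with age under vehicle and 3 higher and 2 lower under CL. Atp6v0d1, the subunit found in most cells for which Atp6v0d2 is the alternative form, did not pass under vehicle (0.29) and stood at 0.38 under CL, while CL raised it by 0.47 in young and 0.56 in aged mice. CL in young mice gave 11 higher and 0 lower of the 17, with Atp6v0e at 0.94 and Atp6v1e1 at 0.86. Of 4 MiT/TFE factors, which switch on lysosomal genes, Mitf was higher with age (1.003 under vehicle and 0.999 under CL) and did not pass with CL (-0.12 in young, -0.13 in aged mice). Tfec was higher with age under vehicle (0.85), did not pass under CL (-0.35) and fell by 1.03 with CL in aged mice, and Tfeb and Tfe3 did not pass in any of the 5 comparisons.

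Cholesterol handling genes take over what Lipa releases. Of 15 tested genes 9 were higher and 0 lower under vehicle and likewise 9 and 0 under CL. The phospholipid transfer protein gene Pltp was at 1.78 and 1.46, and the sterol hydroxylase gene Cyp27a1 at 0.59 and 0.51. CL in aged mice gave 2 higher and 6 lower, with Soat1, which makes cholesterol esters, at -1.07.

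Relatives of the tetraspanins and of Lgals3 were mixed. Of 18 other tetraspanin genes 6 were higher and 3 lower with age under vehicle and 6 and 5 under CL, for example Tspan5 (1.09 and 0.77) and Cd82 (-0.29 and -0.65). Of 6 tested galectin genes 1 was higher and 0 lower with age under vehicle and 3 and 0 under CL. Lgals1 was higher in both (0.96 and 1.13), and Lgals12, a galectin of fat cells, under CL (1.25).

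Cell types other than macrophages that use some of the 10 genes were read beside them. Osteoclasts share Atp6v0d2, Ctsk and Acp5. Of 10 osteoclast markers 8 were tested, and with age 2 were higher and 1 lower under vehicle and 2 higher and 2 lower under CL. The shares of all tested genes called there were 27.2% and 40%. Their summed level was 462 to 724 CPM in Young_Ctrl, 655 to 675 in Young_CL, 549 to 808 in Old_Ctrl and 877 to 978 in Old_CL. Among the tested markers, Ctsk was higher with age under vehicle (log2 change 1.87). Dcstamp was at 2.92 without passing (edgeR adjusted p = 0.060), and Acp5 was at 0.17 without passing. The markers Calcr and Oscar did not pass the filter, and Calcr was at 0 in 13 of 15 libraries. The part of osteoclast transcripts in the level of Atp6v0d2 was not tested. Melanocytes share Gpnmb: their markers Tyr, Tyrp1, Slc45a2 and Oca2 did not pass the filter. Pmel was lower with age under vehicle, at 17.1 ± 4.13 CPM in Young_Ctrl and 9.13 ± 0.216 in Old_Ctrl (SD, n = 4 and 3), and Mlana was higher, at 0.388 ± 0.0919 and 3.18 ± 1.59. The summed level of the melanocyte markers was 17.0 to 27.1 CPM in Young_Ctrl and 15.9 to 17.8 CPM in Old_Ctrl. Of 11 dendritic cell markers, a cell type that shares Itgax, 0 were higher and 6 lower with CL in young mice, among them Flt3 (-0.84), Xcr1 (-0.71) and Ccr7 (-0.66), beside -0.77 for Itgax. With CL in aged mice 0 were higher and 9 lower, beside -0.14 for Itgax, and with age under CL 0 were higher and 7 lower, while Itgax was higher (1.03). Their part in the result was not tested. Their summed level was 408 to 632 CPM in Young_Ctrl and 341 to 417 CPM in Young_CL.

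The pattern of the 10 genes over the 15 libraries was compared with 10429 other genes of average log2 CPM of at least 3, as a description across libraries that share depth and tissue mix. Each of the 10 followed the mean of the other 9, with Pearson's r from 0.75 (Itgax) to 0.97 (Spp1). The 10 most similar genes were Pld3 (r = 0.99), Cd300a (0.98), Anpep (0.98), Gla (0.98), Adam8 (0.97), Ctsl (0.97), Sdc1 (0.97), Tlr13 (0.97), Gp49a (0.97) and Dtx4 (0.96). With group means removed, which leaves the differences between libraries of a group, the list began with Gusb (0.98), Pld3 (0.97), Sirpa (0.97), Atf3 (0.96), Gla (0.96), Cd300lb (0.96) and Tyrobp (0.96). Pld3, Gla and Cd300a were among the 10 highest in both. The second list rests largely on Old_Ctrl, where the spread within a group was widest for all of the 10 genes but Itgax. For Trem2 the highest library had 16.1 times the lowest in Old_Ctrl, beside 4.68 times in Young_CL. Old_Ctrl 3 was the lowest there for 10 of the 10 genes. Pld3, a lysosomal nuclease gene, was at 73.6 to 87.3 CPM in Young_Ctrl, 225, 95.7 and 261 CPM in Old_Ctrl 1, 3 and 4, and 126 to 186 CPM in Old_CL.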

How the data were processed

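The authors isolated polyA RNA of inguinal adipose tissue with Trizol and a PureLink kit and made TruSeq libraries, per the labels' protocols. STAR alignment used mm9, and reads were counted per gene with featureCounts of Subread, per the submitters' processing notes, versions not given. The deposited values are integer counts per gene, 1 table of 24015 genes and 15 libraries. How strand and shared reads were treated is not given in the sources used here. The 10 genes, the marker lists and the comparisons were chosen with earlier results of these data known.

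Genes were filtered by group with filterByExpr, libraries scaled by TMM, and groups compared with the edgeR 4.0.16 quasi-likelihood test under R 4.3.3 (robust, 1 mean per group, all 15 libraries), with Benjamini-Hochberg adjustment over 15288 genes and calls at an adjusted p under 0.05. SEs were obtained by dividing the size of a log2 change by the root of its F statistic. Levels are TMM-scaled CPM, and list means use log2 CPM (prior count 2). At the smallest total, 3 counts are 0.497 CPM. The fitting script was tested on simulated data.

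Alternatives were RLE and upper-quartile scaling, no filter or a stricter one (mean count 10 or more, and 3 libraries at 1 CPM or more), DESeq2 1.42.0, voom of limma 3.58.1, the groups alone, the replicate number as a block, each library left out, the 5 muscle-rich libraries left out, Old_CL 1, 2 and 4 summed, and the B cell, muscle or pan-macrophage mean as a covariate. Besides the 10 genes, up to 4 genes of smallest p per list and comparison were named, with 12 others set down by name (Tyrobp, Atp6v0d1, Cd44, Itgb2, Emr1, Csf1r, Mrc1, Lpl, Fabp5, Plin2, Ctsk and Mitf), and the 10 of most similar pattern. Promoter windows are of RefSeq (GRCm38.p6), another build than that of the counts.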

Additional observations from a re-analysis of the deposited data

Results flagged for a closer look

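Old_CL 3 was far above the other 3 aged CL libraries for 6 of the 10 genes, by the gap between its level and the next one as a share of the group's range (Dixon's criterion at the 95% level). Trem2 was at 53.2 CPM there, against 28.2 CPM in the next library, and Atp6v0d2 at 52.4 against 25.2 CPM. Lgals3 was at 525 against 281 CPM, Cd68 at 155 against 85.8 CPM and Lipa at 185 against 127 CPM. Cd9 was at 64.8 against 53.8 CPM. In all, 30 groups of 4 were examined, and chance alone marks about 1 group in 20. The 6 values come from 1 library and are not independent of each other. Old_CL 3 is also the aged CL library rich in muscle transcripts, while Old_CL 1, 2 and 4 differed less among themselves than other library pairs of 1 group did, and the part of either in these values was not tested. Old_Ctrl has 3 libraries and was not examined in this way.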

How the results depend on the processing

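Over 28 alternatives, 1238 of 1390 log2 changes of the 10 genes kept their direction and their side of the threshold, 81 were no longer called, 30 became called, 7 reversed and 34 changed sign without a call in either fit. RLE and upper-quartile scaling, both filters, DESeq2 and voom left each of the 5 counts within 1.5 times of its value.

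A percentage in parentheses is the share of all genes called in the same fit. For young CL (2 of 10 called) the count was 1 with the replicate block (40.5%), 1 with the B cell score (10.7%), 1 with the muscle score (37.3%) and 4 with the pan-macrophage score as a covariate (44%), and 0 to 2 with a library left out. For aged CL (4 of 10) it was 2 with the groups alone (50.5%), 10 without the 5 muscle-rich libraries (32%), 2 with Old_CL 1, 2 and 4 summed (31.1%), 2 with the pan-macrophage score (23.5%) and 2 to 9 with a library left out. For age under vehicle (9 of 10) it was 0 with the B cell score (0.157%), 1 with the pan-macrophage score (3.49%) and 9 with any library left out. For age under CL (10 of 10) it was 0 with the B cell score (11.4%) and 7 to 10 with a library left out. For the interaction (0 of 10) it was 4 without the muscle-rich libraries (1.3%) and 0 to 7 with a library left out, and no fit of the groups alone exists. Leaving out the muscle-rich libraries leaves 1 Young_CL library, which is assumed to vary like the other groups.

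These values reversed: Trem2 with CL in young mice (-1.45 without the muscle-rich libraries), Cd63 with age under CL (-0.14 with the B cell score), and with the pan-macrophage score Cd68 in young CL (0.47) and Trem2 (2.11), Gpnmb (0.11), Spp1 (0.67) and Cd68 (0.92) in aged CL. The cause was not tested.

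Replicate numbers are shared across groups, but same-numbered libraries did not all deviate together (correlations of -0.35 to 0.34), so the numbers were not used as pairs. With the replicate number as a block the counts were 1, 3, 9, 8 and 0 of 10, in the order above. The 3 aged vehicle libraries spread over 13.1-fold for Gpnmb, and their number limits the precision of the comparisons that use them.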

Other observations

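Genes of monocytes, the blood cells from which recruited macrophages form, changed in both directions with age. Of 12 monocyte and recruitment genes 3 were higher and 2 lower with age under vehicle, and 1 was higher and 5 lower under CL. The growth factor gene Il34, a ligand of the CSF1 receptor, was higher with age under vehicle and under CL (log2 change 0.84 and 1.29, edgeR). CL gave 0 higher and 6 lower of the 12 in young mice, and 0 higher and 8 lower in aged mice, with Plac8 at -2.18, Ly6c2 at -1.82 and Csf1 at -1.03 in the latter.

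Fibroblast and progenitor genes were among those lower with CL in aged pads, where 0 of 12 were higher and 9 lower, with the receptor gene Pdgfra at -1.14 and Ly6a at -1.53. With age under vehicle 6 were higher and 1 lower, among them Dcn (0.99) and Lum (1.17). Fat cell markers were higher with CL at both ages, in 9 of 12 genes each, with 0 lower.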
